A study of Homo sapiens with 59 samples.

Results

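The clustered protocadherins were examined in chromatin immunoprecipitation sequencing data from NCI-H661, an established human large cell lung carcinoma line that expresses the embryonic factors DPPA2 and DPPA4. The members were the protein-coding genes of chromosome 5 in GENCODE release 44 whose symbols are PCDHA, PCDHAC, PCDHB, PCDHGA, PCDHGB or PCDHGC followed by digits, and they numbered 53 of 20007 protein-coding genes. They comprised 15 genes of the alpha cluster (hg38 chr5:140786136-141012347), 16 of the beta cluster (chr5:141051374-141249365) and 22 of the gamma cluster (chr5:141330514-141512977), all on the plus strand.

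Clustered protocadherins are cadherin-family surface proteins, best known from neurons, in which each cell uses a small and largely random choice of them as an identity tag. In the alpha and gamma clusters every member has its own promoter and its own large first exon, which is spliced to constant exons shared by the cluster, whereas beta members are single-exon genes. Choice is made promoter by promoter. DNA methylation silences the promoters that are not used, and CTCF and cohesin loop the used promoters to a distant enhancer. PCDHAC1, PCDHAC2, PCDHGC3, PCDHGC4 and PCDHGC5, the C-type members at the end of the alpha and gamma clusters, are used more broadly than the others.

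The series held 59 samples, of which 51 had a list of enriched domains (peaks) and 8 were inputs. Hairpins against DPPA2 (shDPPA2), DPPA4 (shDPPA4) or both (shDPPA2+4) were switched on for 7 days by doxycycline at 2 µg/mL (DOX), with water (H2O) as the control. Each line was 1 sorted population, and H3K4me3 (a mark of active promoters) was profiled in replicates 1 and 2, H3K27me3 and H2AK119ub (the marks of Polycomb repressive complexes 2 and 1) in replicates 1 and 3, which gave 12 libraries per mark. Parental cells, which carry no hairpin, were kept for 1 day in DMSO or in A-485 at 10 µM, a compound that blocks the histone acetyltransferases p300 and CBP. They were profiled for H3K27ac in replicates 2 and 4, H2AK119ub in 3 and 4, H3K27me3 in 2, 3 and 4, and the Polycomb subunit SUZ12 in DMSO replicate 3. No library came from a control hairpin, so DOX itself and the knockdown cannot be told apart. Each knockdown line had a single input per treatment in the series, so input and treatment differ together. The study made the shDPPA2+4 line from shDPPA2 cells, so the lines are not fully independent. The study calls its ChIP-seq replicates biological, whereas the labels do not say whether they were separate cultures; if they were not, the p-values measure technical spread only.

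Depth set what could be seen. Peaks with a log2 fold over input above 1 and FDR under 0.05 were kept. Each H3K4me3 library kept 29591 to 32024 peaks with 8394879 to 19379794 reads in them, whereas H3K27me3 libraries of the knockdown lines kept 78999 to 179298 peaks with 1085365 to 10545826 reads and H2AK119ub libraries 40041 to 93106 peaks with 1330926 to 4136521 reads. Parental H3K27ac libraries were the most uneven, at 25946 to 112108 peaks. In both H3K27ac lists of replicate 4 the input counts were those of the other treatment, so that either the inputs or the treatment labels of these 2 libraries were exchanged, which cannot be told apart: all 616 peaks of the DMSO library that shared both borders with a peak in another A-485 list carried the same input count as that list, against 9.01% of the 433 shared with other DMSO lists. They are called by their labels here, and the values with the labels exchanged are given beside the results. H3K4me3 marked the promoters of 4 of 5 epithelial genes, 4 of 4 mesenchymal genes, 5 of 5 neural genes and 1 of 5 lung genes (NKX2-1) in all 6 H2O libraries, and 0 of 4 blood genes. Single H2O libraries marked 69.9% to 70.6% of all promoters. H3K27me3 also marked 2 of the 4 mesenchymal and 2 of the 5 neural genes in all 6 of its H2O libraries, so these counts do not name a cell type. Of the defining surfactant, secretory and napsin genes of lung, SFTPC, SFTPB, SCGB1A1 and NAPSA had 0 bases under H3K4me3 peaks. DPPA2 and DPPA4 had H3K4me3 over the whole 3001-base window in all 12 libraries, which is no check of a hairpin that acts on the transcript.

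The promoters are shown first, because most members of all 3 clusters hold the letters CGCT shortly before the start. So short a match does not by itself show a binding site. RefSeq promoter sequence (GRCh38.p14) matched 47 of the 53 members. The letters CGCT, which lie in the conserved element near the start of these genes that CTCF is known to bind, occurred on the gene's strand within the 100 bases before the start in 44 of 47 members (93.6%), against 28.1% of 27305 promoters in the RefSeq table. Of the members with a single copy there, 33 in all, the copy began at a median of 54 bases before the start, between 95 and 11 bases. Below are the 100 bases before the start, 5′ to 3′, with every CGCT in capitals. The alpha members shown are PCDHA1, the first gene of its cluster and free of H3K4me3, and PCDHA12 and PCDHA9, which carried it. PCDHA9 is shown because it lacks the letters.
PCDHA1: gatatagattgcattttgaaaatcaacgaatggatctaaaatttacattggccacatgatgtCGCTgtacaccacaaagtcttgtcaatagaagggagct
PCDHA12: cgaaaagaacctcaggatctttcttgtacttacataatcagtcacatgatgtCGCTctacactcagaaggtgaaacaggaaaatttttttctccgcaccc
PCDHA9: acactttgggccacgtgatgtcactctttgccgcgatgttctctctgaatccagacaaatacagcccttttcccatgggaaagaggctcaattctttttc

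The coordinates of these stretches were chr5:140786040-140786139, chr5:140875208-140875307 and chr5:140848282-140848381. The C-type alpha members PCDHAC1 (chr5:140926199-140926298) and PCDHAC2 (chr5:140966376-140966475), the pair of members with Polycomb marks in most libraries, have a different sequence around CGCT and several copies each.
PCDHAC1: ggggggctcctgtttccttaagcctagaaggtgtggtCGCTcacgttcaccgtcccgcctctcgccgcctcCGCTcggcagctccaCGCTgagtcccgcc
PCDHAC2: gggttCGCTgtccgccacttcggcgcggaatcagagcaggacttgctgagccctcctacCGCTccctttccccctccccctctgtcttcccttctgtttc

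Beta and gamma members are shown as pairs with and without stable H3K4me3. PCDHB2 (chr5:141094515-141094614) and PCDHGA11 (chr5:141420951-141421050) carried the mark in 12 of 12 libraries, PCDHB16 (chr5:141182287-141182386) in 4 of 12, and PCDHB15 (chr5:141245295-141245394) and PCDHGA1 (chr5:141330414-141330513) in none.
PCDHB2: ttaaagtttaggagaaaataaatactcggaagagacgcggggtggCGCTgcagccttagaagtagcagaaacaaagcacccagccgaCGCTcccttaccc
PCDHB16: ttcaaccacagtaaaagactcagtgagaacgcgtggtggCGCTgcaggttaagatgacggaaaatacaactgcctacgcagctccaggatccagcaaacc
PCDHB15: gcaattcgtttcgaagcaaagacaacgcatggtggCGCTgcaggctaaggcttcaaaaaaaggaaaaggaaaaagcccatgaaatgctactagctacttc
PCDHGA11: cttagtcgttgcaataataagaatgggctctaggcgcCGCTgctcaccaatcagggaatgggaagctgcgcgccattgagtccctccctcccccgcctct
PCDHGA1: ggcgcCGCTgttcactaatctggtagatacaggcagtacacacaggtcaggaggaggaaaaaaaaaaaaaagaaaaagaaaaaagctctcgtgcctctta

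The surroundings of these letters differed between the clusters. The words of 10 letters given next are among those held by the most member promoters, picked after the data were seen. Their lower share among all promoters is therefore no test. The 10 letters ggtggcgctg occurred in 12 members, all beta, and in 0.194% of all promoters. The letters gcgccgctgt occurred in 9 members, all gamma (0.0696% of all promoters), and atgatgtcgc in 8 members, all alpha (0.0366%). CGCT within 100 bases of the start did not separate marked from unmarked members, since it was held by 18 of 19 members with H3K4me3 in 12 libraries and 23 of 25 members with none. The members without it were PCDHA9, PCDHB8 and PCDHGB2. TATAAA on either strand was held by 6 of 47 members (12.77%; all promoters 11.95%), and AGNNGGC on either strand by 16 of 47 (34.04%; all promoters 64.02%). A match of AGNNGGC can share its last base with a match of CGCT, and no match says only that the letters are not in this window of 300 bases. In the wider window of 3001 bases the ratio of observed to expected CpG had a median of 0.578 in members with H3K4me3 in 12 libraries and 0.537 in members with none. Other promoters had 0.634 and 0.242 in the same classes, so the gap between marked and unmarked windows was narrower among the members (0.578 against 0.537).

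H3K4me3 lay on a fixed subset of the members. A promoter was counted as marked where at least 300 bases of the window (1500 bases on each side of the start of the canonical transcript) lay under kept peaks. In all 12 libraries 21 of 53 members were marked (39.6%; all promoters 68.8%), 29 were marked in none (54.7%; all promoters 28.3%) and 3 in between. The marked members were 8 of 15 in alpha, 5 of 16 in beta and 8 of 22 in gamma. In alpha they were PCDHA4, PCDHA5, PCDHA7, PCDHA9, PCDHA11, PCDHA12, PCDHAC1 and PCDHAC2. In beta they were PCDHB2, PCDHB5, PCDHB6, PCDHB11 and PCDHB14, and in gamma PCDHGA3, PCDHGB1, PCDHGA7, PCDHGA10, PCDHGB7, PCDHGA11, PCDHGC3 and PCDHGC4.

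The first and last genes of the clusters were mostly without the mark, which is near the share of all members marked in none (29 of 53, 54.7%). PCDHA1, PCDHB15, PCDHGA1 and PCDHGC5 had 0 bases under H3K4me3 peaks in all 12 libraries, PCDHB1 had some in 3 libraries, and PCDHAC2 alone among these ends was marked in 12. PCDHGC5 was the only C-type member without H3K4me3, and its window had a CpG ratio of 0.218, the lowest of the 53. The highest ratio, 0.807 at PCDHA3, was also at a member without the mark, and PCDHB14 was marked in 12 at 0.337.

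**Figure D1:**
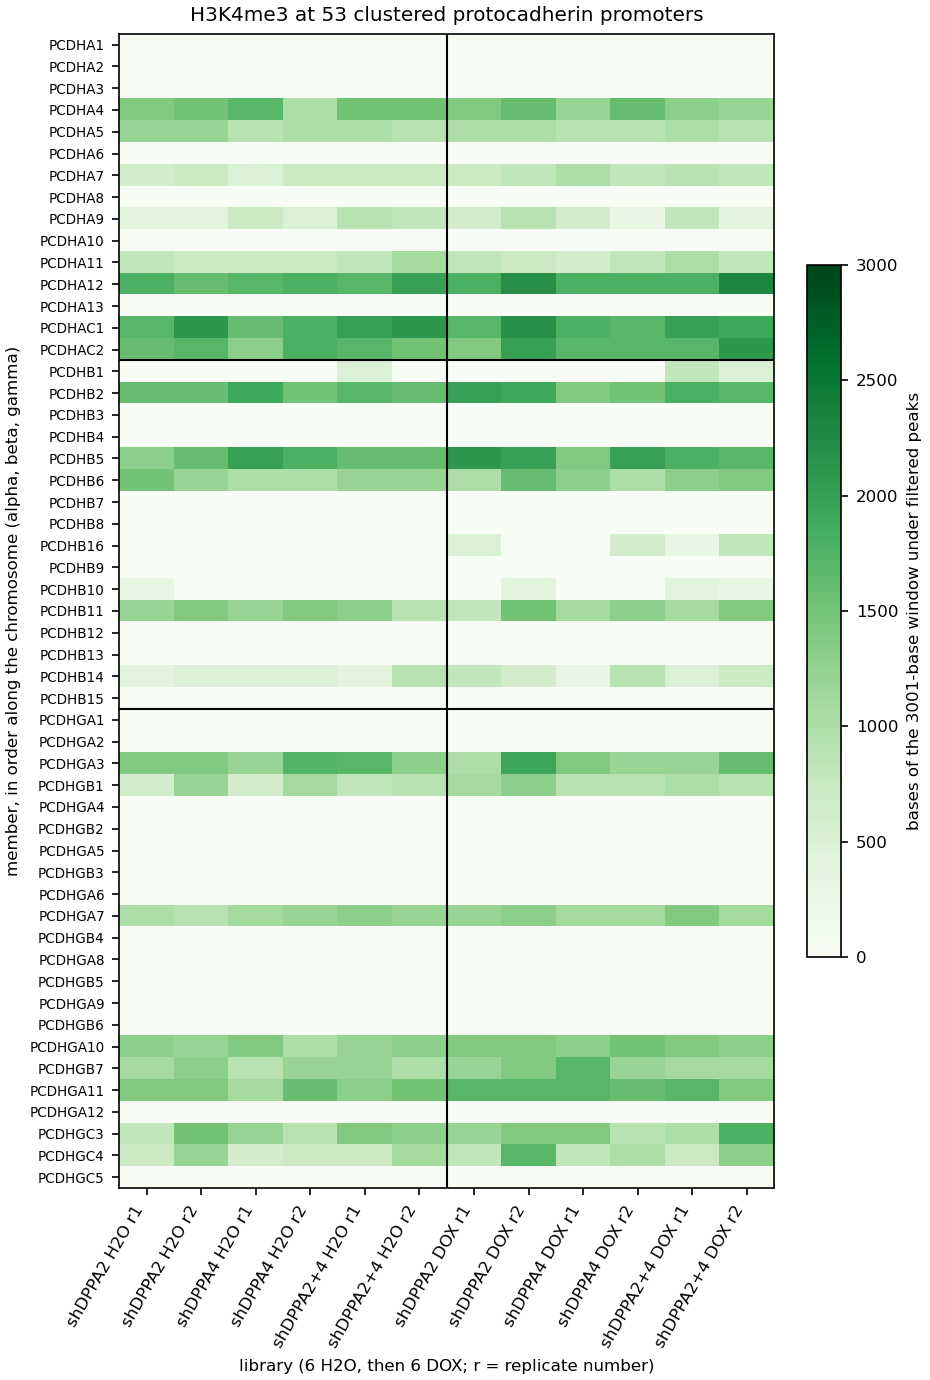
Bases of each member's 3001-base promoter window under kept H3K4me3 peaks (colour, 0 to 3000) for 53 members in chromosomal order (rows, black lines between the alpha, beta and gamma clusters) and 12 libraries (columns, H2O left and DOX right of the line). The same 21 rows are filled in every column, and PCDHB1, PCDHB16 and PCDHB10 are filled in some.

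PCDHAC1 and PCDHA12 had the most bases. PCDHAC1 had 1700, 2100, 1600, 1800, 2000 and 2100 bases in the H2O libraries of shDPPA2, shDPPA4 and shDPPA2+4 (both replicates of each in turn), a mean of 1883 ± 214 (SD, n = 6). PCDHA12 followed with 1767 ± 137, PCDHB2 with 1650 ± 138, PCDHB5 with 1650 ± 235 and PCDHAC2 with 1600 ± 179 (SD, n = 6). Their neighbours in that order lay within 1 SD of each other. PCDHGA3 had 1455 ± 215, PCDHA4 1433 ± 234, PCDHGA11 1383 ± 172, and PCDHGA10 and PCDHB11 1233 bases each (SD 137 and 186). PCDHGC3, a C-type member, had 1183 ± 279 and PCDHB6 1183 ± 183. PCDHGC4, the other marked gamma C-type member, had 833 ± 250 (SD, n = 6). The fewest bases were at PCDHB14, 533 ± 186, and PCDHA9, 617 ± 214.

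Reads gave a sharper order than bases. In RPM, the reads in the window per 1000000 reads in kept peaks, PCDHAC1 had 25.1 ± 3.35, PCDHB5 24.5 ± 1.16 and PCDHGA11 23.8 ± 1.94 in the H2O libraries (SD, n = 6), which did not differ beyond their spread. PCDHB14 with 2.11 ± 0.457 and PCDHA9 with 2.12 ± 0.704 stood at the other end. All 21 were low for marked promoters: among the promoters marked in 12 libraries, their H2O means ranked between the 0.0581 percentile (PCDHB14) and the 15.3 percentile (PCDHAC1). The H3K4me3 regions were also short. The 20 regions that held 1 member promoter and no other had a median of 1750 bases (1000 to 2400), and all were at most 3000 bases, against a median of 3600 for 10688 other promoters, of which 32.3% were at most 3000. A median of 69.5% of the member region lay past the start, against 60.2% elsewhere.

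**Figure D2:**
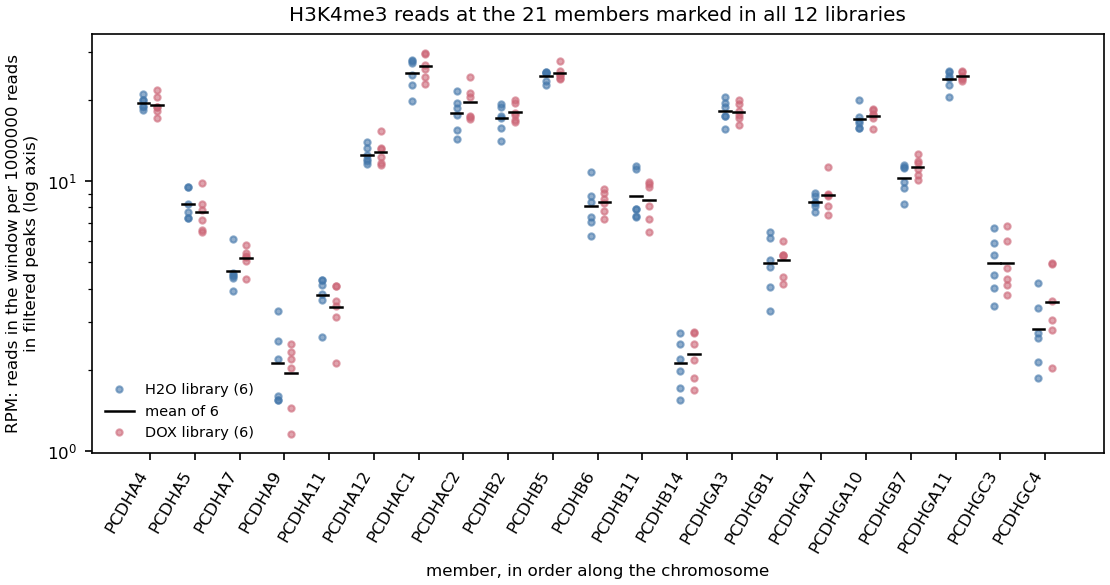
H3K4me3 reads in the promoter window in RPM, per 1000000 reads in kept peaks (log axis) for the 21 members marked in 12 libraries, with 6 H2O libraries (blue), 6 DOX libraries (red) and the mean of each (black bar). Means ran from 2.11 at PCDHB14 to 25.1 at PCDHAC1 in H2O, and the H2O and DOX points overlap at every member.

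Reads were mapped with no stated filter on mapping quality, so near-identical copies could share reads. The share of 75-base words of a window that recurred elsewhere in the locus was 0 at the median member, but reached 19.4% at PCDHA9, 19.0% at PCDHA7 and 23.1% at PCDHB8 and PCDHB13. The values of PCDHA7 and PCDHA9 are uncertain to that extent, as are those of overlapping genes: PCDHB14 shares its start region with ENSG00000279983, and PCDHB16 lies over lncRNA genes, since the counts carry no strand.

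Genes around the clusters and protocadherins elsewhere were marked more often than the members. Of the 7 protein-coding genes between the clusters or within 100 kb of their ends, 6 had H3K4me3 in all 6 H2O libraries, and only SLC25A2, a mitochondrial carrier gene between beta and gamma, had 0 bases. TAF7, a transcription factor subunit gene beside it, had 2528 bases on average. Of 11 non-clustered protocadherins, 8 were marked (PCDH1, PCDH7, PCDH8, PCDH9, PCDH10, PCDH17, PCDH18 and PCDH19), with H2O means of 2212 to 3001 bases, all above every member, and PCDH12, PCDH15 and PCDH20 had none. All 14 genes known to act in protocadherin choice or silencing carried it, among them CTCF, the cohesin subunit gene RAD21, SMCHD1 and the DNA methyltransferase gene DNMT3B. Single H2O libraries marked 69.9% to 70.6% of all promoters, so 8 of 11 is near the background, and the lists of 7 and 14 genes are short. By the bases of 3 marks over the 36 knockdown-line libraries, the promoters most like the mean of the members were CARS2 (r = 0.986), GLG1 (0.985) and WWP1 (0.985). This is a description over libraries that share depth, and these had 2769, 2595 and 2555 bases of H3K4me3 on average against 501.5 for the mean member.

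Between the members the clusters were nearly bare. Each library had 22 to 25 H3K4me3 peaks in the clusters, of which 1 lay away from any member window in 11 libraries and 2 in the other. The one present in 12 of 12 libraries (chr5:141084201-141085900, 1700 bases, 32827 bases past the start of PCDHB1) covered an exon of the lncRNA gene ENSG00000279558 in the long interval before PCDHB2. Another in 12 of 12 lay in the gap of 39026 bases between alpha and beta (chr5:141039301-141041700), over the start of the lncRNA gene ENSG00000288892.

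The first comparison was whether H3K4me3 at the members changed when DPPA2 or DPPA4 was depleted. The study reports no change of this mark on knockdown. The same 21 members stayed marked in all libraries, and none of the 53 lost the mark in any line, taking a loss as both H2O libraries marked and both DOX libraries unmarked (all promoters lost in at least 1 line: 0.065%). A gain, the reverse, was found at PCDHB16 and PCDHB10 in shDPPA2+4 (all promoters gained in at least 1 line: 0.38%). Both are beta members with weak peaks.

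PCDHB16 had 0 bases in all 6 H2O libraries. With DOX it had 500 and 0 bases in shDPPA2, 0 and 600 in shDPPA4, and 300 and 800 in shDPPA2+4. It was thus above the H2O libraries in 4 of 6 pairs and equal to them in 2. PCDHB10 had 300 bases in shDPPA2 H2O replicate 1 and 0 in the other H2O libraries. With DOX it had 0 and 400 bases in shDPPA2, 0 in both shDPPA4 libraries, and 400 and 300 in shDPPA2+4. PCDHB1 had 500 bases in shDPPA2+4 H2O replicate 1, 800 and 500 in shDPPA2+4 with DOX, and 0 elsewhere. These values stand near the minimum of 300 bases, and every DOX library of H3K4me3 also had more reads in kept peaks than its H2O partner (9252289 to 19379794 against 8394879 to 10986087). The part of depth in these gains was not tested.

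Among the marked members, PCDHA7 was the only one with more bases with DOX in 6 of 6 pairs of line and replicate. It had 600, 700, 500, 700, 700 and 700 bases with H2O and 700, 800, 1000, 800, 900 and 800 with DOX, a mean rise of 183 ± 160 (SD, n = 6 pairs), and the groups met at 700. Over all promoters 1.87% had more bases in 6 of 6 pairs and 0.055% had fewer, so 1 of 53 members is near the background. The largest mean rises after PCDHB16 (367 ± 327) were at PCDHGA11 (250 ± 259) and PCDHGC4 (217 ± 172). PCDHGC4 had 700, 1200, 600, 700, 700 and 1100 bases with H2O and 800, 1700, 800, 1000, 700 and 1300 with DOX, higher in 5 of 6 pairs with overlapping groups. The mean fell by 83.3 ± 98.3 bases at PCDHA5, fell by 66.7 ± 463 at PCDHGA3 and fell by 50.0 ± 383 at PCDHA4, less than the spread between pairs in each.

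The test on reads found no member region that changed. Regions were merged over libraries, and 21 members had one with a peak in all 12 libraries and could be tested; the other 32 members were not tested. By edgeR's quasi-likelihood test with the replicate number as a block, 0 of 21 were called over the 3 lines at adjusted p under 0.05 and a log2 fold change of at least 0.5, with 115 of 22060 regions called in all (0.521%). None of the 21 reached an unadjusted p under 0.05, and DESeq2 called 0 of them. In single lines 0 of 21 were called in shDPPA2, shDPPA4 and shDPPA2+4, where 0.0272%, 0.0363% and 0.0% of all regions were. The median log2 fold change of the 21 was 0.02 against 0.0033 for all regions, and 14 of the 21 were above 0. With the bases called in each library as an offset, which compares read density, the median was -0.063 against -0.080 for all regions, and 3 of the 21 were above 0. The smallest adjusted p was that of PCDHAC2, at a log2 fold change of 0.13 ± 0.07 (SE, edgeR adjusted p = 0.261). The largest change was that of PCDHGC4, at 0.31 ± 0.18 (SE, edgeR adjusted p = 0.286). PCDHAC1 had 0.08 ± 0.06 and PCDHGC3 fell by 0.02 ± 0.17 on the log2 scale (SE). No difference between lines reached an adjusted p under 0.05 at a member, and the widest was at PCDHA9 between shDPPA2 and shDPPA2+4 (1.16 on the log2 scale, edgeR adjusted p = 1.00; -0.37 with the offset).

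The clusters as wholes gave a small difference in one direction. H3K4me3 peaks covered 4.38% ± 0.216 of the bases of the 3 clusters with H2O and 4.76% ± 0.408 with DOX (SD, n = 6). In shDPPA2 the share went from 4.19% to 4.47% and from 4.57% to 5.46%, in shDPPA4 from 4.10% to 4.37% and from 4.27% to 4.53%, and in shDPPA2+4 from 4.54% to 4.74% and from 4.60% to 5.00%. The DOX library was higher in 6 of 6 pairs, by 0.383 ± 0.257 percentage points (SD). An exact two-sided sign-flip permutation test gave p = 0.03125, the smallest that 6 pairs allow, and an adjusted p of 0.0938 over the 3 marks. The test takes the 6 pairs as independent, which is not shown, given the single inputs and related lines. RPM in place of bases gave a rise of 9.32 RPM in 6 of 6 pairs, with an adjusted p of 0.0469 in the same exact permutation test. Per 1000000 reads in promoter windows, a scale chosen after seeing the data, the rise was 20.7 in 6 of 6 pairs, with an adjusted p of 0.0938 in the same exact permutation test. Single clusters rose on average by 0.162 (alpha), 0.457 (beta) and 0.575 (gamma) percentage points, with adjusted p from 0.469 to 0.492 in the exact permutation test. The deeper DOX libraries named above are the same libraries.

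**Figure D3:**
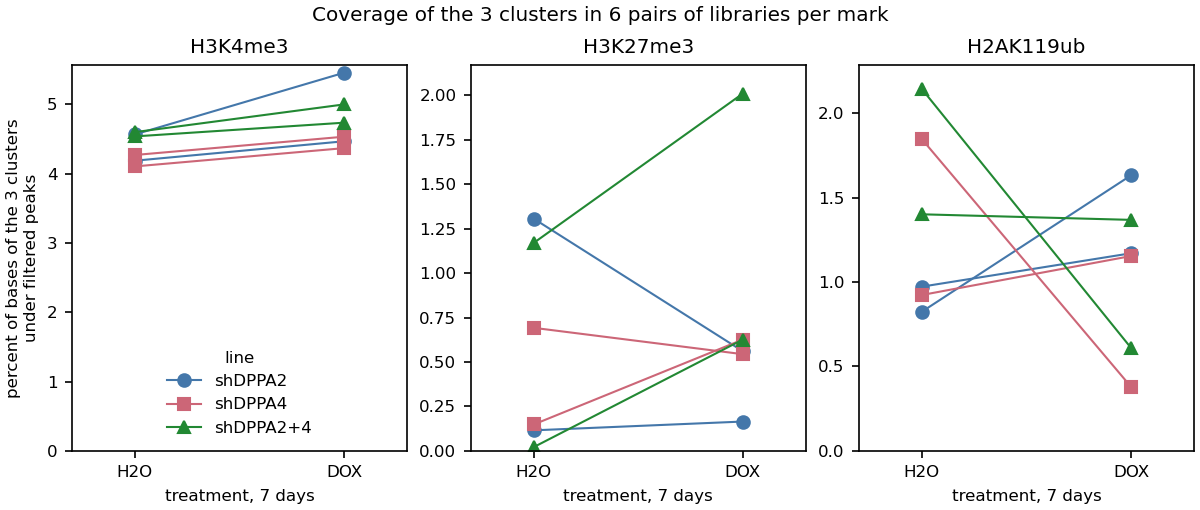
Percent of the bases of the 3 clusters under kept peaks (vertical axis, a scale of its own for each mark) with H2O and DOX, with 1 line per pair of libraries and colour and marker by hairpin. H3K4me3 rises in all 6 pairs from 4.38% to 4.76% on average, while the H3K27me3 and H2AK119ub pairs cross.

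PCDHAC1 and PCDHAC2, the C-type members of the alpha cluster, carried Polycomb marks in more libraries than any other member. H3K27me3 marked 8 of 53 members in at least 1 library and 45 in none (84.9%; all promoters 77.4%). PCDHAC1 was marked in 11 of 12 libraries, PCDHAC2 in 6 and PCDHB1 in 5, while PCDHA4, PCDHB11, PCDHB12, PCDHB14 and PCDHGA11 were marked in 1 each. PCDHB1 is the first beta gene and stands apart from the others along the chromosome. PCDHAC1 had 2602, 700, 1599, 600, 1902 and 0 bases with H2O and 2502, 499, 1899, 1200, 1799 and 1402 with DOX, in the order of lines above and replicates 1 and 3 in turn. Replicate 3 was below replicate 1 in each line and treatment, as were its reads in kept peaks in 5 of these 6 groups.

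H2AK119ub reached more members but stayed within the H3K4me3 set. It marked 11 of 53 members in at least 1 library, and every one of the 11 had H3K4me3 in 12 libraries. Among members with H3K4me3 in 12 libraries 11 of 21 had H2AK119ub in at least 1 (52.4%; other promoters 91.1%). Among members with H3K4me3 in none it was 0 of 29, against 39.8% of other promoters. PCDHAC1 was marked in 12 of 12 libraries, PCDHAC2 in 11, PCDHGB7 and PCDHGA11 in 10 each, PCDHGA10 in 4, PCDHA4, PCDHB6 and PCDHGA3 in 2 each, and PCDHB11, PCDHGA7 and PCDHGC4 in 1 each. The 3 gamma members PCDHGA10, PCDHGB7 and PCDHGA11 follow each other along the chromosome.

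Bivalent promoters, with H3K4me3 and H3K27me3 in both H2O libraries of a line, were PCDHAC1 and PCDHAC2 in shDPPA4 and PCDHAC1 in shDPPA2, and there were 0 in shDPPA2+4 (all promoters 7.37% to 8.61%). H3K4me3-only members numbered 17 to 19 (32.1% to 35.8%; all promoters 58.4% to 58.7%) and members with neither mark 30 to 31 (56.6% to 58.5%; all promoters 22.8% to 23.4%). H3K27me3 alone was found at 0 members in each line, against 2.88% to 3.67% of all promoters, so a count of 0 among 53 is near the background. Of the 11 non-clustered protocadherins, PCDH8 and PCDH19 had H3K27me3 in all 6 H2O libraries, and PCDH20, which lacked H3K4me3, had it in 5. Single H2O libraries marked 11.1% to 17.9% of all promoters.

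**Figure D4:**
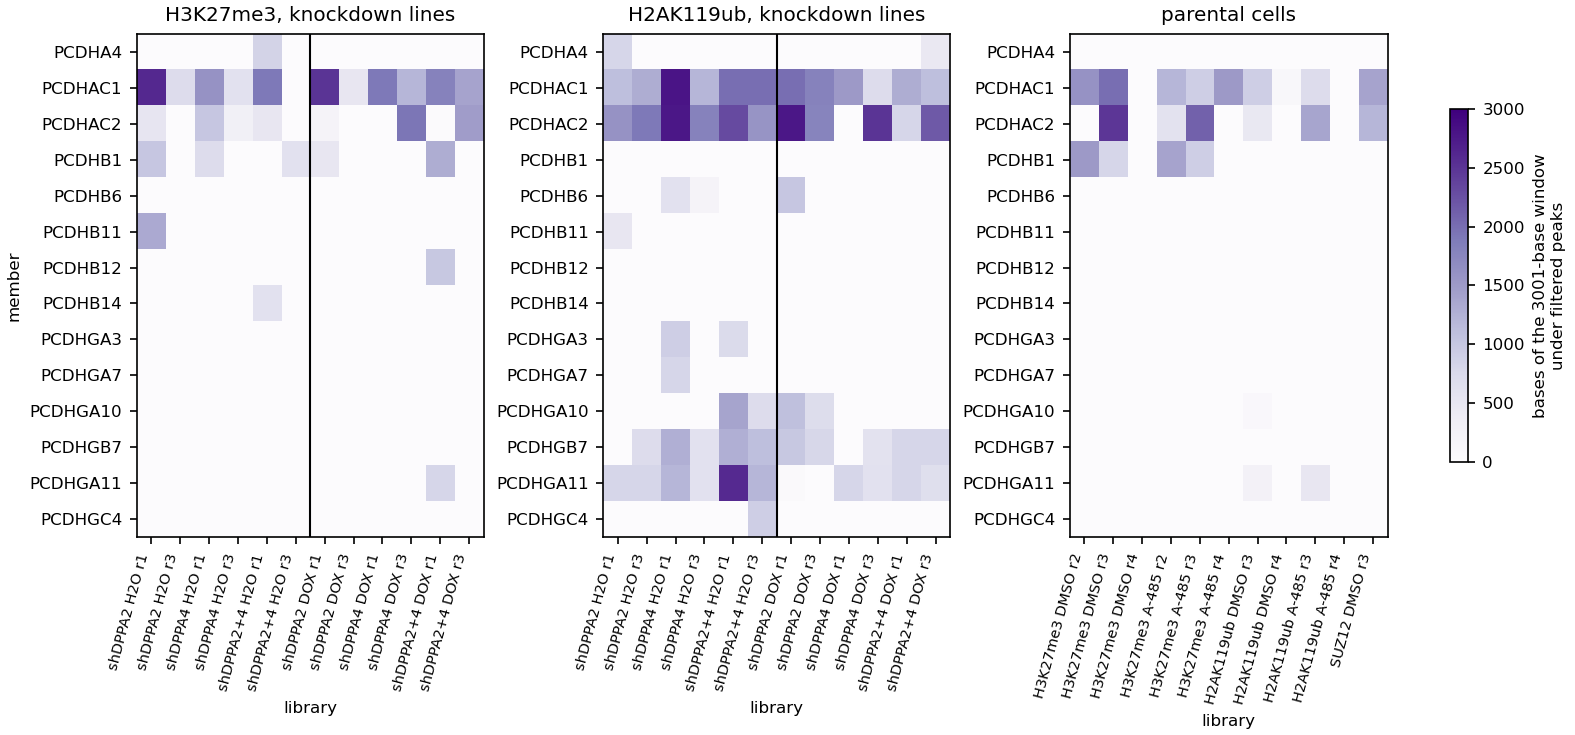
Bases of the 3001-base window under kept peaks (colour, 0 to 3000) of H3K27me3 and H2AK119ub in the knockdown lines (black line between 6 H2O and 6 DOX libraries) and of H3K27me3, H2AK119ub and SUZ12 in parental cells, for the 14 members with any such bases. PCDHAC1 and PCDHAC2 are the rows filled most often, and PCDHGB7 and PCDHGA11 have H2AK119ub in 10 of 12 libraries with no H3K27me3 beside it except in 1 library at PCDHGA11.

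With DOX, H3K27me3 was lost or gained at 0 members in any line (all promoters: 0.815% lost and 1.58% gained in at least 1 line). The largest mean rises were at PCDHAC1 (316 ± 613 bases), PCDHAC2 (217 ± 1083) and PCDHB12 (164 ± 401), and the mean fell by 221 ± 542 at PCDHB11, fell by 139 ± 340 at PCDHA4 and fell by 100 ± 245 at PCDHB14 (SD, n = 6 pairs). None exceeded the spread between pairs. Coverage of the clusters was 0.576% ± 0.566 with H2O and 0.755% ± 0.639 with DOX, higher in 4 of 6 pairs (adjusted p = 0.531, exact sign-flip permutation test). No member region had an H3K27me3 peak in every library, so none could be tested on reads.

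H2AK119ub was lost at PCDHGA11 in shDPPA2 and at PCDHGA10 in shDPPA2+4, and gained at PCDHGA10 in shDPPA2. Over all promoters 8.87% lost and 2.36% gained it in at least 1 line, so 2 and 1 of 53 members are near or under those shares. Few members could lose the mark, since H2O libraries marked 10.1% of members on average against 51.7% of all promoters. The comparison therefore does not say how often a marked member lost it. PCDHGA11 had 800, 800, 1200, 600, 2601 and 1200 bases with H2O and 50, 0, 800, 601, 800 and 651 with DOX. It fell in 5 of 6 pairs and was 1 base higher in the remaining one, and the groups overlapped between 600 and 800 bases. The mean fell by 716.5 ± 605 bases at PCDHGA11, fell by 333.5 ± 852 at PCDHAC1 and fell by 321 ± 1522 at PCDHAC2, and rose on average by 33.3 ± 528 at PCDHB6. PCDHGA10 had 1387 and 700 bases with H2O in shDPPA2+4 and 0 in the other H2O libraries, and with DOX 1087 and 687 in shDPPA2 and 0 in the others. The loss and the gain were thus in different lines.

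PCDHAC1 was the only member whose H2AK119ub region had a peak in all 12 libraries (chr5:140925701-140929300). Its bases were 1100, 1300, 2799, 1199, 1999 and 1999 with H2O and 1999, 1799, 1500, 699, 1299 and 1099 with DOX. Its reads gave a log2 fold change of -0.01 ± 0.23 over the 3 lines (SE, edgeR adjusted p = 0.988). By line the values were 0.95 ± 0.41 in shDPPA2 (edgeR adjusted p = 0.259), -0.65 ± 0.41 in shDPPA4 (edgeR adjusted p = 0.804) and -0.33 ± 0.40 in shDPPA2+4 (edgeR adjusted p = 1). The edgeR difference between shDPPA2 and shDPPA4 was 1.60 ± 0.58 (SE, adjusted p = 0.930). These directions depended on covered bases. With the bases called in each library as an offset, the log2 fold changes were -0.40 in shDPPA2, 0.37 in shDPPA4 and 0.42 in shDPPA2+4, where the medians of all regions were -0.42, 0.34 and 0.18. The difference between shDPPA2 and shDPPA4 was then -0.76 ± 0.63 (SE, edgeR adjusted p = 0.380). Over the 3 lines and in each of them, 0.0% of the 6161 regions with a peak in all 12 libraries were called. Over the 3 lines 1327 had an unadjusted edgeR p under 0.05 and DESeq2 called 405, PCDHAC1 not among them. Of 170847 merged regions, those without a peak in some library were not tested, so a full loss could not be called here. The study, with its own peak set, scaling and test, reported a substantial loss of H2AK119ub in shDPPA4 and shDPPA2+4.

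Coverage of the clusters by H2AK119ub was 1.35% ± 0.544 with H2O and 1.05% ± 0.471 with DOX, higher in 3 of 6 pairs (adjusted p = 0.531, exact sign-flip permutation test). The 2 shDPPA2 pairs rose, from 0.824% to 1.63% and from 0.973% to 1.17%, and both shDPPA2+4 pairs fell, from 2.14% to 0.610% and from 1.40% to 1.37%. Reads in kept peaks within the clusters fell by 41.8 RPM on average and in 6 of 6 pairs with DOX (adjusted p = 0.0469, same exact permutation test). Per 1000000 reads in promoter windows they were higher in 4 of 6 pairs, by 55.9 on average (adjusted p = 0.781, same exact permutation test). The share of H2AK119ub reads that lay in promoter windows went with DOX in replicate 3 from 33.4% to 10.7% in shDPPA2, from 34.3% to 13.6% in shDPPA4 and from 30.9% to 15.9% in shDPPA2+4. In replicate 1 it went from 41.25% to 26.955% in shDPPA2, from 32.6% to 39.8% in shDPPA4 and from 29.7% to 33.9% in shDPPA2+4. The direction of the cluster difference thus depended on the scale.

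In parental cells, H3K27ac lay mostly on members that carried H3K4me3 in the knockdown lines. DMSO replicate 2 marked 5 members (PCDHA12, PCDHB2, PCDHB5, PCDHGA3 and PCDHGA11), all in the set of 21. DMSO replicate 4 marked 11, of which 10 were in that set (PCDHA11, PCDHAC1, PCDHAC2, PCDHB2, PCDHB5, PCDHB6, PCDHGA3, PCDHGA10, PCDHGB7 and PCDHGA11). The other was PCDHA2, with 352 bases of a peak that lies past its start. The share of members marked, 9.43% and 20.8%, compared with 58.9% and 73.6% of all promoters in the same libraries. Of all promoters 68.8% had H3K4me3 in 12 libraries. That share among promoters with H3K27ac was not counted, so the overlap is not shown to be particular to the members.

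With A-485, replicate 2 marked PCDHA12 and PCDHB2 and replicate 4 marked 0 members. PCDHB2 had 400 and 1000 bases with DMSO (replicates 2 and 4) and 300 and 0 with A-485. PCDHB5 had 400 and 1100 bases with DMSO and 0 and 0 with A-485, and PCDHGA3 and PCDHGA11 each had 400 and 1000 with DMSO and 0 and 0 with A-485. These last 3 met the rule for a loss (all promoters: 7.23% lost, 0.0% gained), which rests on the replicate 4 labels. With those labels exchanged, 0 members were lost and 0 gained (all promoters: 0.0150% lost, 0.1000% gained). By contrast, PCDHA12 had 400 and 0 with DMSO and 500 and 0 with A-485. PCDHAC2 (1900 bases), PCDHAC1 (1400) and PCDHB6 (1100) had H3K27ac in DMSO replicate 4 alone.

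**Figure D5:**
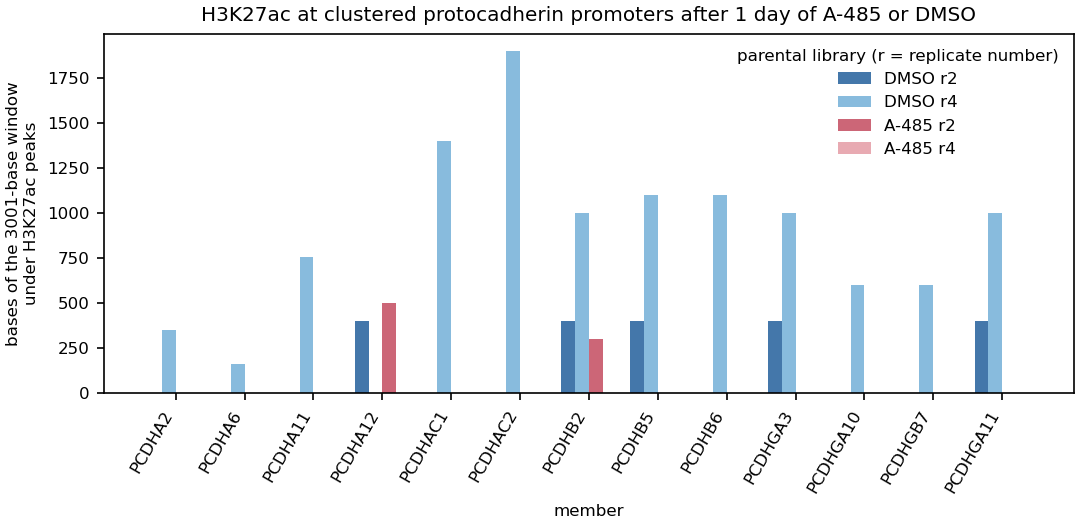
Bases of the 3001-base window under kept H3K27ac peaks (bars from 0) in 2 DMSO libraries (blue) and 2 A-485 libraries (red) of parental cells, for the 13 members with any. DMSO replicate 4 has the tallest bars, up to 1900 bases at PCDHAC2, A-485 replicate 2 has bars at PCDHA12 and PCDHB2, and A-485 replicate 4 has none.

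H3K27ac covered 0.330% and 3.14% of the clusters with DMSO and 0.132% and 0% with A-485 (replicates 2 and 4). The exact permutation test of 2 libraries against 2 cannot go under p = 0.333, which it reached. Within replicate 2, where each library had its own input, members went from 5 to 2, and within replicate 4, as labelled, from 11 to 0. Of all promoters 58.9% went to 49.4% and, as labelled, 73.6% to 38.8%. With the replicate 4 labels exchanged, members there would go from 0 to 11 and all promoters from 38.8% to 73.6%, and the mean difference in cluster coverage would turn from -1.67 to 1.47 percentage points. As labelled, both A-485 libraries had 20.2 and 23.2 Mb under kept peaks against 44.7 and 153 Mb with DMSO, and the part of peak number in the members' values was not tested.

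In the other parental libraries, the members with H3K27me3 were PCDHAC1, PCDHAC2 and PCDHB1, the same 3 that led in the knockdown lines, whereas H2AK119ub reached fewer members. H3K27me3 marked PCDHAC1 and PCDHB1 in DMSO replicate 2, PCDHAC1, PCDHAC2 and PCDHB1 in DMSO replicate 3, the same 3 genes in A-485 replicates 2 and 3, and PCDHAC1 in A-485 replicate 4. DMSO replicate 4, with 29493 peaks the sparsest of these libraries, marked none. All promoters were marked at 15.4%, 15.7% and 4.22% with DMSO and at 13.75%, 14.03% and 10.54% with A-485 (replicates 2, 3 and 4). With A-485, H3K27me3 was lost or gained at 0 members (all promoters 0.02% and 0.025%). H2AK119ub marked PCDHAC1 and PCDHAC2 in DMSO replicate 3, these and PCDHGA11 in A-485 replicate 3, and 0 members in replicate 4 of either treatment, where 38.2%, 32.6%, 19.3% and 22.5% of all promoters were marked in the same order. PCDHGB7, marked in 10 of 12 knockdown-line libraries, had 0 bases in all 4. It was lost or gained at 0 members (all promoters 1.31% and 0.665%). In an earlier analysis of these data, H2AK119ub DMSO replicate 3 resembled H3K27me3 about as much as its own target. Of the promoters it marked, 28.5% had H3K27me3 in parental DMSO replicate 3, against 26.6% to 31.6% in the other parental H2AK119ub libraries. In the H2O libraries of the knockdown lines the share was lower, at 16.3% to 21.1%. SUZ12 marked PCDHAC1 (1400 bases) and PCDHAC2 (1200) and no other member, 3.77% of members against 12.2% of all promoters.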

How the data were processed

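Reads of chromatin immunoprecipitation libraries with a mouse spike-in were processed by the authors with BWA 0.7.13 as aligner after trimming in Trim Galore 0.6.6, then with SAMtools 1.9 and Picard 2.6.0, and were split into human and mouse reads. Versions are those of the submitters' processing notes. Domains were called by the authors in each library separately with EPIC2 on hg38 (bins of 100 bases, 1 gap allowed, fragments of 147 bases). Spike-in scaling does not enter these lists.

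Per domain, the authors gave the number of ChIP reads and of input reads as raw counts. The deposited p-value and FDR columns and the deposited score column come from EPIC2, and the deposited fold values are log2 ratios of ChIP over input. The SUZ12 list has the same columns, although the study's methods name MACS2 as the caller for SUZ12, so its caller is uncertain. No deposited column belonged to another sample, and no blacklist was applied here.

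Peaks with log2 fold above 1 and FDR under 0.05 were kept. Promoters were 3001-base windows around GENCODE 44 canonical starts, and a promoter with 300 bases or more under kept peaks was called marked. Counts were summed over regions merged across libraries of a mark, where each library had a peak and the mean count was at least 10. They were fitted with edgeR 4.0.16 (TMM, quasi-likelihood, replicate number as a block) in R 4.3.3, with Benjamini-Hochberg adjustment over all regions. DESeq2 1.42.0 was an alternative. On simulated counts, edgeR recovered 96.5% of 200 changed regions among 22060 for H3K4me3, with 8 false calls. For H2AK119ub it recovered 97% of 200 among 6161, with 5 false calls. These simulations check the procedure and do not give its power in the real libraries. How small a difference the fits could find at the member regions was not tested. Cluster coverage was tested by exact sign-flip permutation over 6 pairs. H3K27me3 and the A-485 libraries had no member region with a peak in every library and so no such fit for the members.

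The study made its replicates in complete batches, and the replicate number was taken here as the batch and used as a block. The labels do not say that an equal number is the same batch, and the pairs rest on the same reading. Libraries with the same number deviated together only weakly (correlations of -0.0261 to 0.236 over regions, not all above 0.1). Named members were those with most H3K4me3, the C-type members, the first and last of each cluster, those with the largest mean changes and those lost or gained. The members, lists and motifs were chosen with earlier results of these data known.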

Additional observations from a re-analysis of the deposited data

Results flagged for a closer look

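Members whose bases under peaks moved one way with DOX in both pairs of one line and the other way in both pairs of another line are given here as mean differences, DOX minus H2O, over 2 pairs of libraries. The differences of bases between lines were not tested. For H3K4me3, PCDHA9 had 350 bases in shDPPA2, -150 in shDPPA4 and -250 in shDPPA2+4. It was 1 of 53 members with such a pattern, against 7.66% of all promoters.

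For H3K27me3, PCDHAC1 had -150.5 bases in shDPPA2 and 450 in shDPPA4. It was also 1 of 53, against 1.4995% of all promoters.

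For H2AK119ub the pattern was found at 3 of 53 members, against 4.69% of all promoters, and at the clusters as wholes. PCDHAC1 had 699 bases in shDPPA2, -899.5 in shDPPA4 and -800 in shDPPA2+4. PCDHGB7 had 527, -650 and -388.5 in the same lines. PCDHGA10 had 887 in shDPPA2 and -1043.5 in shDPPA2+4. The share of the 3 clusters under peaks differed by 0.503 percentage points in shDPPA2 and by -0.783 in shDPPA2+4.

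On reads, the H2AK119ub region of PCDHAC1 gave a log2 difference of 1.60 between shDPPA2 and shDPPA4 (edgeR adjusted p = 0.930) and of 1.28 between shDPPA2 and shDPPA2+4 (edgeR adjusted p = 0.934). With the bases called in each library as an offset, these differences were -0.76 (edgeR adjusted p = 0.380) and -0.81 (edgeR adjusted p = 0.562), and the fold change turned in each line. Both shDPPA2 DOX libraries of H2AK119ub covered more of the genome than their H2O partners (99.4 against 42.0 Mb and 98.2 against 56.2 Mb). The signs of the lines thus held for bases and for summed reads, and were the reverse for reads per called base.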

How the results depend on the processing

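No alternative gave a called member region: 0 of 21 for H3K4me3 and 0 of 1 for H2AK119ub without TMM scaling, with DESeq2, without a filter on the mean count, with called bases as an offset, over promoter windows, and leaving out each library or replicate in turn. Called regions over all the genome were far less stable. For H3K4me3 over 3 lines they were 115 and ran from 0 (without replicate 2) to 333 (without shDPPA2+4 DOX replicate 1), and for H2AK119ub from 0 to 1192 (without replicate 1). Without the replicate block, 0 member regions were called, with 0 H3K4me3 regions in all over the 3 lines and 1 in shDPPA4, and the edgeR adjusted p of PCDHAC2 was 0.673; the pairing changed no other call at a member. The study describes complete batches, but neither it nor the labels say that an equal replicate number is the same batch. The deviations of libraries with the same number did not correlate in every pair.

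Several directions turned, and the cause was not tested except where the setting changes the scale. Coverage of the 3 clusters in RPM differed with DOX by 9.32 for H3K4me3 and by -41.8 for H2AK119ub, both past the threshold, and by -3.75 for H3K27me3. Per 1000000 promoter reads, chosen after seeing the data, H2AK119ub was 55.9 and H3K4me3 20.7 (adjusted p = 0.0938, exact permutation test). In percentage points, H3K27me3 was -0.0180 without replicate 3, 0.378 without replicate 1 and -0.0918 without line shDPPA2+4, and H2AK119ub ran from -0.731 to 0.132 when a replicate was left out. For alpha, H3K27me3 was -1.14 RPM, and H2AK119ub was 0.0147 with every deposited peak, 0.298 without line shDPPA4, 0.0221 without line shDPPA2+4, 97.6 per 1000000 promoter reads, and -0.766 to 0.604 when a replicate was left out. For beta, H3K27me3 was 0.0976 without line shDPPA2, and H2AK119ub 0.0168 with every deposited peak and 0.0379 without line shDPPA4. With A-485, H3K27me3 coverage became 9.99 RPM and 187 per 1000000 promoter reads, and the H3K27ac share of members moved to -0.943 percentage points at a minimum of 1500 bases. With the treatment labels of the 2 replicate 4 H3K27ac libraries exchanged, an alternative added after seeing the data, the H3K27ac share of members turned to 7.55 percentage points and coverage to 1.47 over the 3 clusters, 2.03 for alpha, 0.859 for beta and 1.45 for gamma, and 0 members were lost.

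With called bases as an offset, 3 of 21 member regions of H3K4me3 were above 0 in place of 14 (median -0.063, all regions -0.080), PCDHAC2 (-0.020) and PCDHGC4 (-0.013) among those that turned, and H2AK119ub at PCDHAC1 turned to -0.397 in shDPPA2, 0.366 in shDPPA4 and 0.418 in shDPPA2+4. Over the 3 lines the log2 fold change turned also at PCDHAC1 for H2AK119ub with DESeq2 (0.0018), the offset (0.13), promoter windows (0.050) and single libraries left out (-0.16 to 0.10). Members lost or gained also moved with the rule. At a minimum of 1500 bases, H3K4me3 was lost at 1 member (PCDHA4; all promoters 0.185%) and gained at 1 (PCDHGA11; 1.05%), H2AK119ub was lost at 1 (PCDHAC1; 6.05%), and H3K27ac was lost with A-485 at 0 (17.9%). With every deposited peak, H3K4me3 was gained at 1 (PCDHB16; 0.390%), and H2AK119ub was lost at 1 (PCDHGA10; 4.25%) and gained at 0 (2.08%). The sparsest H3K27me3, H2AK119ub and H3K27ac libraries limit what could be seen at the members.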

Other observations

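A few peaks lay inside the clusters away from any member window and in few libraries. H3K27ac in parental DMSO replicate 4 had 6 such peaks with 6500 bases in all, among them 3 past PCDHGC5 near the end of the gamma cluster, 18420 to 22920 bases past its start. H3K27me3 had a peak 2761 bases past the start of PCDHA1 (chr5:140788901-140789900) in 2 of 12 libraries, and one in the interval between PCDHB1 and PCDHB2 (chr5:141084601-141086100) in 3 of 12, where H3K4me3 was present in 12. H2AK119ub had a peak 1550 bases past the start of PCDHGA11 (chr5:141422601-141423700) in 3 of 12 libraries.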
